A study of Mus musculus with 9 samples.

Results

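Growth hormone pulse targets are liver genes that are switched on around puberty when the pituitary releases growth hormone in pulses, a pattern that is stronger in males. Each pulse activates the growth hormone receptor on hepatocytes, its kinase JAK2 and the transcription factor STAT5B, and male-biased genes respond to the pulses while many female-biased genes are held down by them. The products of these genes include steroid and fatty acid enzymes, transporters and the major urinary proteins that male mice excrete as scent signals. The 10 genes described here were Hsd3b5, Elovl3, Mup20, Mup3, Slco1a1, Cyp2d9, Cyp7b1, Cyp4a12a, Cyp4a12b and Cyp2u1, out of 32285 genes in the table. They were chosen by name as such targets, with their values in these libraries known, so their levels are a description. Counts of them that pass a test are given only beside the share of all genes, and nothing is read from these counts.

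Liver RNA was sequenced from mice that were 4 weeks old when treatment began and, by the study, male. The question was how doxycycline (Dox) and tetracycline (Tc), antibiotics that switch Tet-regulated transgenes, alter transcription in the liver. There were 3 groups of 3 libraries each: Control mice given tamoxifen, Dox mice given tamoxifen and Dox hyclate, and Tc mice given tamoxifen and Tc hydrochloride. Each drug was dissolved in sucrose-sweetened drinking water at 2 mg/mL for 7 days. Tamoxifen, a ligand of the estrogen receptor that the study uses to activate CreERT2, was thus shared by all groups, and no group without tamoxifen was analysed here. The genotype, strain and hour of collection of the sequenced mice were not given in the sources used here, and the study also describes chimeric mice made from embryonic stem cells in ICR host blastocysts, in which host cells remain. The values, called normalized counts below, are reads per gene scaled to make the libraries comparable.

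Recovered reads on genes ranged from 7426136 to 12183041 per library. In every group the third library could be fitted as a mixture of the first and second, with weights of 58.6% and 41.4% in Control, 61.3% and 34.6% in Dox, and 61.7% and 36.5% in Tc. For the 10 genes, library 3 lay between libraries 1 and 2 of its group in 30 of 30 values. The same was true of 85.3% (Control), 97.1% (Dox) and 94.1% (Tc) of other tested genes over 2-fold apart between libraries 1 and 2. If libraries 3 are not separate livers, each group held 2 livers, and p-values from tests over 9 libraries are too small. Y-linked genes were present in every library (Ddx3y from 545.9 to 1140 normalized counts), and Xist, the X-inactivation RNA, was at 44.1 in Tc library 2 and 23.6 in Tc library 3 against 2.3 to 10.6 in the others. All 9 measured hepatocyte marker genes were at 3981.2 normalized counts or more in every library. Their sum was lowest in Dox library 2, though Cps1 was highest there, as given with the other markers at the end. Since these are whole livers, fewer hepatocytes and less RNA per hepatocyte cannot be told apart.

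Promoter windows from RefSeq (GRCm38.p6, 250 bases before to 50 bases after the listed start, written 5′ to 3′ on the gene's strand) were held for 4 of the 10 genes, Hsd3b5, Mup3, Slco1a1 and Cyp2d9. The listed starts of Mup3, Slco1a1 and Cyp2d9 lay within 25 bases of an annotated GENCODE start, and their windows are shown. These genes were higher in library 1 than in library 2 of both drug groups, but their lowest libraries differed. Capitals mark matches to ATTGAT (the core letters bound by Onecut factors such as HNF6) or CAAAGT (from the HNF4 site), on either strand.
Mup3, chr4:62087268-62087567, minus strand: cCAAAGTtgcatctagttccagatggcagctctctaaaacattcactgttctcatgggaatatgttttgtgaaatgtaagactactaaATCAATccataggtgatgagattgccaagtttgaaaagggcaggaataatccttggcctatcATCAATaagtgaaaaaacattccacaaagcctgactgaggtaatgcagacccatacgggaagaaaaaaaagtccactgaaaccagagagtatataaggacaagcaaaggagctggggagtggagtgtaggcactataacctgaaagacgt
Slco1a1, chr6:141946913-141947212, minus strand: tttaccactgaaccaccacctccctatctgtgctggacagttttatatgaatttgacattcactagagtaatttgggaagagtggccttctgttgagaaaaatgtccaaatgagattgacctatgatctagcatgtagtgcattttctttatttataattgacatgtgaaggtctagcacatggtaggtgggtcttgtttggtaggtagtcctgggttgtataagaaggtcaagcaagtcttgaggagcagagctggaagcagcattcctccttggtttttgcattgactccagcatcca
Cyp2d9, chr15:82452127-82452426, plus strand: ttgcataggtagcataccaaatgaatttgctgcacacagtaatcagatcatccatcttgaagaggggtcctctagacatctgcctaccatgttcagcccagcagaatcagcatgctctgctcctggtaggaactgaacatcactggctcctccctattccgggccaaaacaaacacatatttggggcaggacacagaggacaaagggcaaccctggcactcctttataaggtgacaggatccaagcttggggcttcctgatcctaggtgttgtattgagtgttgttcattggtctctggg
The Mup3 window held ATTGAT 2 times on the opposite strand (read here as ATCAAT, at -162 and -100 from the start) and CAAAGT at -249, with no overlap between the matches. The Slco1a1 and Cyp2d9 windows held neither. The STAT5 letters TTCNNNGAA were in 0 of the 4 windows, against 8.3% of 32851 RefSeq windows of the same length. For comparison, ATTGAT was in 7.54% and CAAAGT in 14.4% of those windows. The Hsd3b5 window held 1 CAAAGT match, at -41, but its listed start lay 15282 bases from the nearest GENCODE start, so it is not printed.

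All 10 genes had high levels in Dox library 1 and Tc library 1 and lower levels in Dox library 2, Tc library 2 and the Control libraries. This held for enzymes, urinary proteins and the transporter alike. Hsd3b5 (ENSMUSG00000038092, chr3:98618634-98630252, minus strand), a steroid dehydrogenase of the male mouse liver, was at 3.2, 30.1 and 3.8 normalized counts in Control libraries 1, 2 and 3. It was at 2577.7, 0.0 and 1551.1 in the Dox libraries and at 1290.9, 5.4 and 699.0 in the Tc libraries. The Dox libraries and the Tc libraries thus each held both a near-absent and a high level, and both groups overlapped Control. Dox library 1 exceeded Dox library 2 by at least 747-fold, taking 3 counts as the limit that a count of 0 allows in Dox library 2 (3.45 normalized counts). Tc library 1 exceeded Tc library 2 239-fold (95% exact counting interval 110 to 653), and such intervals cover counting error only.

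**Figure D1:**
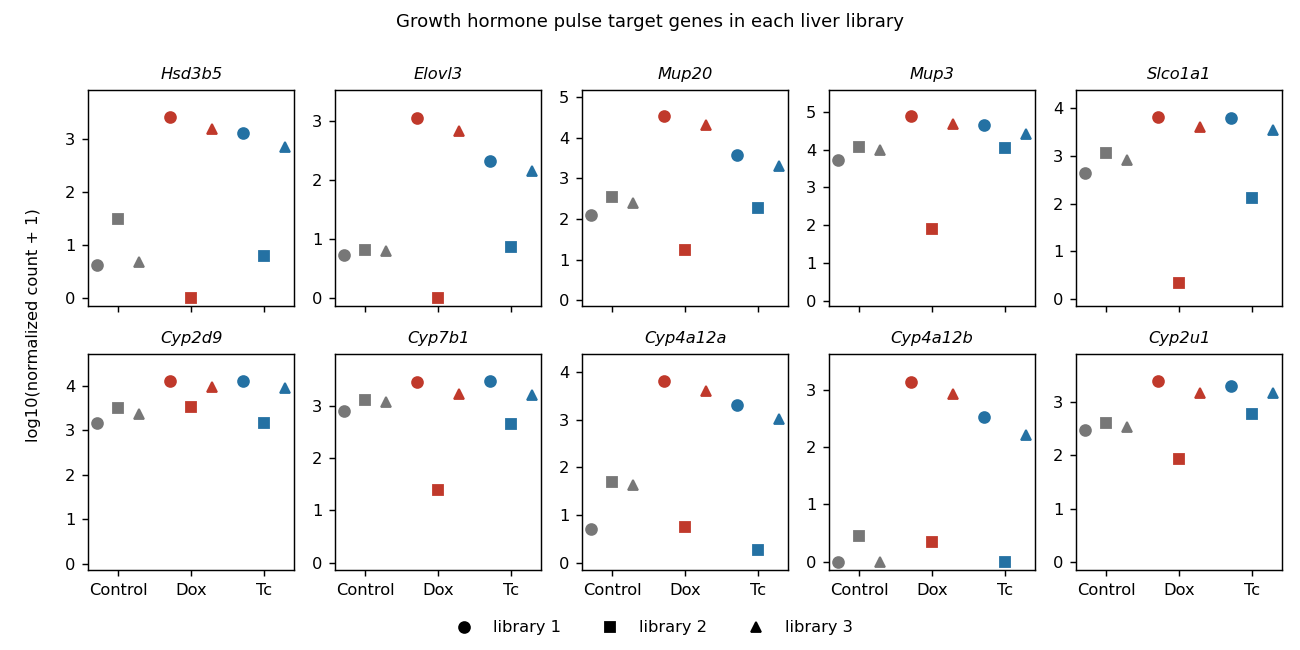
Levels of the 10 growth hormone pulse targets in each library. The vertical axis is log10(normalized count + 1), symbols give the library number and colours the group (grey Control, red Dox, blue Tc). In every panel Dox library 1 and Tc library 1 lie above library 2 of the same group, and library 3 lies between them.

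Cyp2d9 (ENSMUSG00000068086, chr15:82433437-82456845, plus strand), a testosterone hydroxylase, varied least of the 10 between Dox libraries 1 and 2 but not within Tc. Its normalized counts were 1462.9, 3168.1 and 2316.4 in Control, 13063.3, 3371.5 and 9339.8 in Dox and 12981.7, 1436.1 and 8912.3 in Tc. Dox library 2 was just above the highest Control library here, so Cyp2d9 was the 1 gene of the 10 whose Dox and Control libraries did not overlap. Cyp7b1 (ENSMUSG00000039519, chr3:18071950-18243338, minus strand), an oxysterol hydroxylase, was at 805.5, 1259.8 and 1188.7 in Control, 2881.0, 23.0 and 1689.2 in Dox and 2939.3, 436.1 and 1567.4 in Tc. Its second Dox and second Tc libraries were both below every Control library. Dox library 1 was 125-fold above Dox library 2 for Cyp7b1 (counting interval 80.9 to 205), compared with 3.87-fold for Cyp2d9 (3.72 to 4.04).

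The fatty acid enzymes gave a similar order of livers. Elovl3 (ENSMUSG00000038754, chr19:46131897-46135694, plus strand), an elongase of very long fatty acids, was at 4.2, 5.3 and 5.1 normalized counts in Control, 1130.9, 0.0 and 681.8 in Dox, and 203.1, 6.3 and 140.7 in Tc. The 3 Tc libraries were above the 3 Control libraries, but Tc library 2 exceeded the highest of them by about 1 normalized count. Cyp4a12a (ENSMUSG00000066071, chr4:115299046-115332815, plus strand), an omega-hydroxylase of fatty acids, was at 4.2, 49.5 and 42.0 in Control, 6461.1, 4.6 and 3890.4 in Dox, and 2039.9, 0.9 and 1019.1 in Tc. Its neighbour and close copy Cyp4a12b (ENSMUSG00000078597, chr4:115411624-115439034, plus strand) was at 0.0, 1.8 and 0.0 in Control, 1380.5, 1.2 and 845.5 in Dox, and 330.1, 0.0 and 160.9 in Tc. Both copies were thus close to absent in every liver but the high ones. Their longest transcripts shared 98.29% of 2394 aligned bases, and 38.6% of the 86-base stretches of Cyp4a12a, the length of a read, also occurred in another gene. The authors counted only uniquely mapped reads, so the split between the copies is uncertain. Cyp2u1 (ENSMUSG00000027983, chr3:131288441-131303227, minus strand), a cytochrome P450 that hydroxylates long-chain fatty acids, was at 294.3, 395.5 and 331.8 in Control, 2409.2, 85.1 and 1471.9 in Dox, and 1932.5, 582.7 and 1466.3 in Tc. For Cyp2u1 all 3 Tc libraries were above all 3 Control libraries, while Dox library 2 was below them.

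The major urinary protein genes reached the highest levels of the 10, and the transporter gene also varied widely among livers. Mup3 (ENSMUSG00000066154, chr4:62083476-62087342, minus strand), a lipocalin secreted from the liver into urine, was at 5338.1, 11694.7 and 9715.9 normalized counts in Control, 77949.2, 79.4 and 49058.5 in Dox, and 44590.4, 11446.7 and 26712.6 in Tc. The level in Dox library 2 was far below that of any other library. Mup20 (ENSMUSG00000078672, chr4:62050234-62054158, minus strand), the male pheromone protein darcin, was at 128.1, 343.3 and 251.7 in Control, 33770.2, 16.1 and 21122.7 in Dox, and 3834.8, 181.7 and 2028.9 in Tc. Of the 86-base stretches of Mup20, 41.5% occurred in another gene, mostly of its own family, against 3.48% for Mup3. Together 22 Mup genes took 1.25% of all recovered reads in Dox library 1, 0.0011% in Dox library 2, 0.58% in Tc library 1, 0.107% in Tc library 2 and 0.0507% to 0.127% in Control. Slco1a1 (ENSMUSG00000041698, chr6:141907282-141946962, minus strand), a transporter that takes organic anions into hepatocytes, was at 437.2, 1134.2 and 827.7 in Control, 6546.4, 1.2 and 4096.3 in Dox, and 6221.3, 133.1 and 3418.6 in Tc. Dox library 2 held 1 read of Slco1a1, and the ratio of Dox library 1 to it was 5690 with a counting interval from 1020 to 225000.

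Compared per kilobase of exon, the order of levels in the Control livers began with Mup3 (4998.3 to 10950.1 normalized counts per kilobase) and Cyp2d9 (550.4 to 1191.9). Cyp7b1 (371.9 to 581.6) overlapped Cyp2d9, and Mup20 (138.0 to 369.9) overlapped Slco1a1 (82.9 to 215.0). Cyp2u1 followed at 56.1 to 75.4 per kilobase. Hsd3b5 (2.1 to 19.4), Cyp4a12a (1.7 to 20.5) and Elovl3 (2.1 to 2.7) overlapped one another and Cyp4a12b was lowest (0.0 to 0.7). In Dox library 1 the order was different, because Mup20 was at 36390.3, Cyp4a12a at 2667.7 and Hsd3b5 at 1664.1 per kilobase, the last 2 above Cyp7b1 at 1330.1 and Slco1a1 at 1240.8.

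Dox library 1 and Tc library 1, the highest livers, were close for some genes and apart for others. Slco1a1, Cyp2d9 and Cyp7b1 differed by 1.05-fold (counting interval 1.02 to 1.09), 1.01-fold (0.982 to 1.03) and 0.98-fold (0.93 to 1.03) between these libraries. Mup20 was 8.81-fold (8.52 to 9.11), Elovl3 5.57-fold (4.8 to 6.49), Cyp4a12b 4.18-fold (3.71 to 4.73) and Cyp4a12a 3.17-fold (3.01 to 3.33) higher in Dox library 1. These compare 1 liver with another and not the drugs. The Control livers differed too: 7 of 10 genes were over 2-fold higher in Control library 2 than in Control library 1, and 0 were over 2-fold lower. Over all 12100 tested genes, 326 were over 2-fold higher and 260 over 2-fold lower. Hsd3b5 was 9.47-fold (2.98 to 48.2) and Cyp4a12a 11.7-fold (4.32 to 44.4) higher in Control library 2.

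The genes were chosen with these liver-to-liver differences known, so the share of all genes with such a difference is given beside their count and nothing is read from it. Between Dox library 1 and Dox library 2, 10 of 10 genes were over 2-fold higher in library 1, where 17.6% of 12100 tested genes were over 2-fold higher and 17.7% over 2-fold lower. Between Tc library 1 and Tc library 2 the count was again 10 of 10, against 2.29% of all tested genes higher and 6.16% lower. All 10 genes had a mean of 10 or more normalized counts, the cut for testing, but Hsd3b5, Elovl3 and Cyp4a12b passed it only through their high libraries, being at 0.0 to 30.1, 0.0 to 6.3 and 0.0 to 1.8 in the Control libraries, Dox library 2 and Tc library 2. The median difference of the 10 genes on the log2(normalized count + 1) scale was 10.03 in Dox and 4.6 in Tc, beside -0.02 and 0.02 over all tested genes. Over the 9 libraries, Pearson r of log2 levels between members ranged from 0.47 to 0.99 over 45 pairs, with a median of 0.86. Without libraries 3 the range was 0.45 to 0.99 and the median 0.87.

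The drug groups as a whole were also compared with Control. In limma on log2(normalized count + 1) with all 9 libraries, 5.0% of 12100 genes were differentially expressed between Dox and Control (Benjamini-Hochberg adjusted p under 0.05 and fold change over 2), 0.165% between Tc and Control and 0.215% between Dox and Tc. Of the 10 genes, 0 passed in each comparison, and 1, 0 and 0 had an unadjusted p under 0.05, as did 3516, 1412 and 2622 of all 12100 genes. From the recovered reads, DESeq2 called 6 of the 10 as raised with Dox, 0 with Tc and 0 between the drugs with all libraries, where it called 9.4%, 1.56% and 4.98% of all genes. Without libraries 3 it called 0 of the 10 in all 3 comparisons, where it called 145, 9 and 31 of 12096 genes. With all libraries the edgeR test called 0 of the 10 in each comparison, where it called 668, 21 and 0 of all 12100 genes. In edgeR 6, 4 and 0 of the 10 were at an unadjusted p under 0.05, as were 3680, 1488 and 2861 of all genes. The counts thus changed with the tool and with libraries 3, and those of limma also changed with Dox library 2. Without it limma called 6 of the 10 as raised in Dox against Control (8 at an unadjusted p under 0.05), where 9.22% of all genes were called, and 1 in Tc against Control (6 unadjusted), where 1.86% were called. With only Tc and Control fitted it also called 1 (6 unadjusted), beside 2.33% of all genes. Leaving out any other single library gave 0 called genes of the 10 against Control. Those fits called 32 to 1511 of all genes with Dox and 1 to 47 with Tc. All 3 libraries were above all 3 Control libraries for 1 of 10 genes with Dox (Cyp2d9), beside 16.1% of all genes, and for 2 of 10 with Tc (Elovl3 and Cyp2u1), beside 15.8%. The median log2 fold change of the 10 genes was 2.56 for Dox and 2.07 for Tc against Control, beside 0.0 over all genes in both.

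The scale of averaging decided the sign for some members. On the log2 scale Mup3, Slco1a1 and Cyp7b1 averaged -0.33 (standard error 2.23), -0.95 (2.82) and -1.12 (1.59) in Dox against Control, where the very low Dox library 2 weighs heavily, and without that library they averaged 2.87, 2.80 and 1.05. In DESeq2, which compares mean counts, the same genes were at 2.23, 2.13 and 0.48. Hsd3b5 (4.22, standard error 3.06), Elovl3 (3.97, 2.46), Mup20 (3.36, 2.59), Cyp4a12a (4.53, 3.20) and Cyp4a12b (6.60, 2.75) were positive on both scales. For Tc against Control all 10 log2 fold changes were positive, from 0.25 for Cyp7b1 (standard error 1.59) to 4.75 for Cyp4a12b (2.75).

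Most other male-biased genes had the same order of libraries 1 and 2 within the drug groups. This list held 20 further male-biased genes, of which 18 had a mean of 10 or more normalized counts, and 16 of those 18 were over 2-fold higher in Dox library 1 than in Dox library 2 and 0 lower. In Tc 14 of 18 were higher and 1 was lower. Over all tested genes, 17.6% were higher and 17.7% lower in Dox, and 2.29% higher and 6.16% lower in Tc. The list includes Mup genes of the same family as Mup3 and Mup20. Mup12, Cspg5, Mup1, Mup17 and Ugt2b38 passed the cut only through their high libraries. In the Control libraries, Dox library 2 and Tc library 2 they were at 0.0 to 6.2, 0.0 to 8.0, 0.0 to 22.1, 0.0 to 20.3 and 0.0 to 18.6. Mup7, another urinary protein gene, was at 19.1, 34.5 and 39.4 normalized counts in Control, 5031.2, 0.0 and 2896.2 in Dox, and 3474.4, 9.0 and 2220.9 in Tc. Gstp1, a glutathione transferase, was at 2788.2, 2089.6 and 2230.0 in Control, 9043.0, 713.2 and 5934.1 in Dox, and 8473.2, 1230.2 and 6161.7 in Tc. The gene lower in Tc library 1 was Selenbp2, a selenium-binding protein gene, at 208.0 against 626.8, while in Dox it was at 4958.5 and 12.7.

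Bcl6, a male-biased repressor that binds STAT5 sites, followed the pattern within Tc but not within Dox. It was at 54.0, 75.2 and 64.8 normalized counts in Control, 341.2, 498.1 and 371.3 in Dox, and 231.4, 58.5 and 163.4 in Tc. Tc library 1 exceeded Tc library 2 3.96-fold (counting interval 3.0 to 5.29), while Dox library 1 was at 0.685 of Dox library 2 (0.591 to 0.793). All Dox libraries were above all Control libraries, including the second, in which the 10 pulse targets were low. Bcl6 rose with Dox, with a log2 fold change of 2.62 and a standard error of 0.44 (adjusted p = 0.015 in limma), and without libraries 3 the adjusted p was 0.558 with limma and 0.0191 with DESeq2. It was the 1 gene of the 18 that passed in Dox against Control, beside 5.0% of all genes. In Tc against Control 0 of the 18 passed, beside 0.165%, with 2 at an unadjusted p under 0.05.

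**Figure D2:**
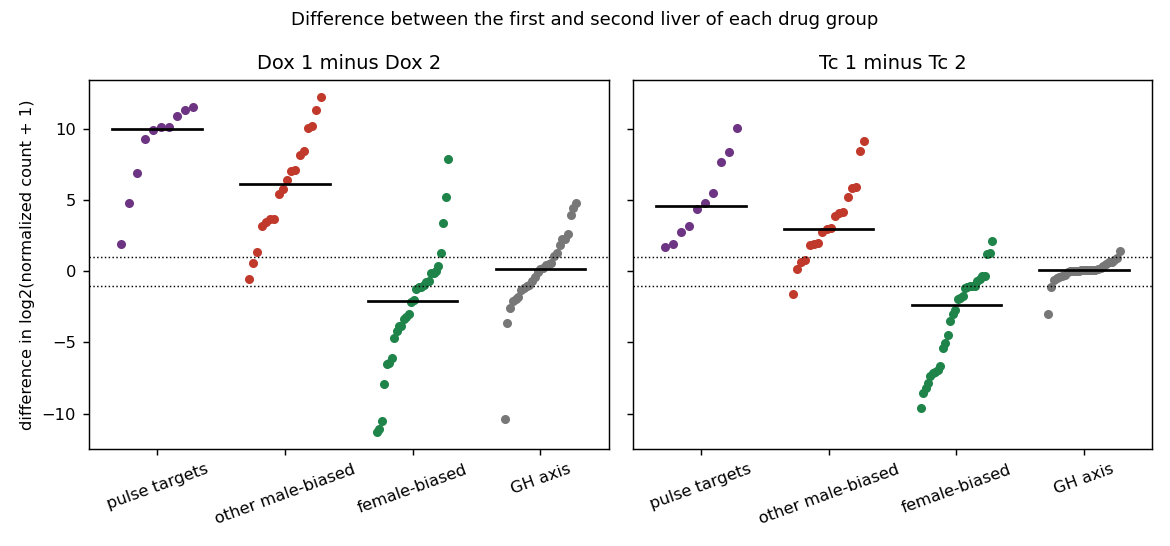
Difference between library 1 and library 2 within Dox (left) and within Tc (right). Each point is 1 gene whose mean was 10 or more, the vertical axis is the difference in log2(normalized count + 1), black bars are medians and dotted lines mark 2-fold. The pulse targets all lie above the upper line, most other male-biased genes do too, and most female-biased genes lie below the lower line (19 of 30 in Dox, 23 of 30 in Tc).

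Female-biased liver genes, which low or continuous growth hormone favours, mostly showed the opposite order of livers. Of 30 such genes, 19 were over 2-fold lower and 4 over 2-fold higher in Dox library 1 than in Dox library 2, and 23 were lower and 3 higher in Tc library 1 than in Tc library 2. Over all tested genes, 17.7% were lower and 17.6% higher in Dox, and 6.16% lower and 2.29% higher in Tc. Against the Control livers, however, Dox library 2 did not have a uniform female-biased pattern. Cyp3a41a, a female-specific cytochrome P450 of the liver, was at 950.6, 687.4 and 765.4 normalized counts in Control, 0.0, 0.0 and 0.9 in Dox, and 0.0, 767.1 and 314.1 in Tc. It was thus absent or nearly so in both Dox livers and in Tc library 1, and at the Control level in Tc library 2. A1bg, a plasma protein gene, was at 1345.4, 136.2 and 750.1 in Control, 1.1, 2.3 and 1.8 in Dox, and 3.9, 1141.2 and 449.7 in Tc. By contrast Sult1e1, the estrogen sulfotransferase, was at 2115.4 in Dox library 2 and at 0.0 to 7.1 in the Control and Tc libraries.

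In the test of all 9 libraries, 6 of 30 female-biased genes fell with Dox and 0 rose, while 0 passed with Tc (4 at an unadjusted p under 0.05). Over all genes 5.0% passed with Dox and 0.165% with Tc. Cyp3a41a fell with a log2 fold change of -9.33, a standard error of 2.06 and an adjusted p of 0.032 in limma. Its close paralog Cyp3a44 was at -8.80 (1.80, 0.0249), and reads shared by such paralogs make the split between them uncertain. A1bg fell with a log2 fold change of -7.61 (1.79, 0.038) and Cyp2c69 with -4.80 (0.61, 0.00744). The other 2 called genes, Cyp2c40 (-3.28, adjusted p 0.00468) and the prolactin receptor gene Prlr (-2.27, 0.0136), were named after their values were seen. Without libraries 3 limma called 0 of the 30 and 0 of all genes, while 7 of the 30 had an unadjusted p under 0.05. DESeq2 then called 6, all lowered, beside 145 of 12096 genes. With all 9 libraries DESeq2 called 21, of which 7 were raised and 14 lowered, beside 9.4% of all genes. With 1 library left out limma called 13 without Dox library 1 (5 raised and 8 lowered), 12 without Dox library 2 (2 raised and 10 lowered), 12 without Tc library 1 (all lowered), 4 without Tc library 3, 2 without Control library 1, Control library 2 or Dox library 3, and 1 without Control library 3. Cyp2b9, another female-biased cytochrome P450, was at 2486.5 to 3246.8 in Control and 1.1 to 178.3 in Dox, with an adjusted p of 0.0505. Sult3a1, Cyp3a16 and Hao2 had log2 fold changes of -6.03, -5.74 and -4.79 with Dox and adjusted p of 0.0594, 0.0637 and 0.0755.

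**Figure D3:**
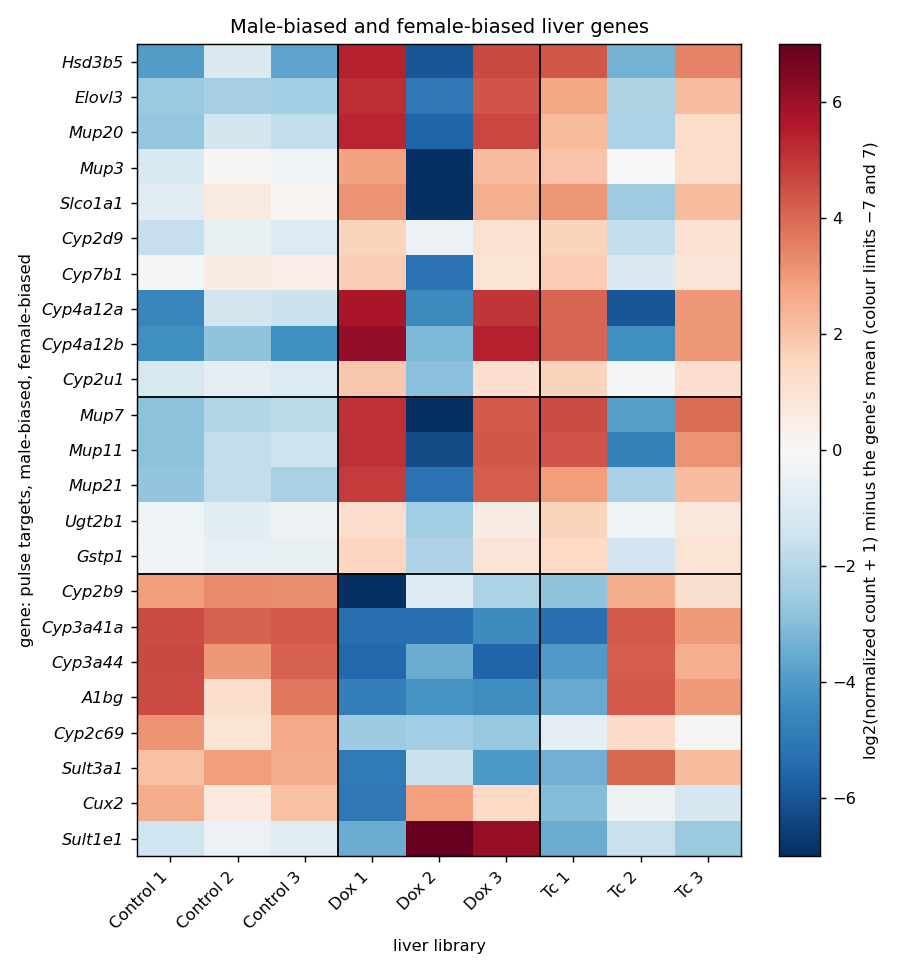
Levels of the 10 pulse targets (top), 5 other male-biased genes (middle) and 8 female-biased genes (bottom) in the 9 libraries, as log2(normalized count + 1) minus the mean of the gene, red above and blue below. The genes below the first line were picked for display after their values were seen. Dox library 1 and Tc library 1 are red for the upper blocks, and Dox library 2 is blue for the pulse targets while Sult1e1 is red in it.

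The growth hormone axis itself differed between the low livers of the drug groups. Ghr, the receptor gene, was at 3903.8, 3377.8 and 4106.5 normalized counts in Control, 7254.0, 471.6 and 4625.0 in Dox, and 6451.8, 4159.1 and 4799.0 in Tc. Dox library 2, where 7 of the 10 pulse targets were at their lowest level, therefore also had the lowest Ghr level, while Tc library 2 was within the range of the other libraries. Igf1, the main growth factor that the liver secretes on growth hormone signalling, was at 6397.7, 5988.5 and 6733.2 in Control, 5827.2, 1213.6 and 3977.5 in Dox, and 7486.9, 6458.5 and 5850.9 in Tc. Igfals, which encodes the acid-labile subunit that stabilises circulating IGF1, was at 1736.0, 1495.1 and 1769.8 in Control, 1124.6, 49.5 and 724.1 in Dox, and 1915.9, 1868.7 and 1868.9 in Tc. All 3 of these genes were lowest in Dox library 2. Igfbp1, an IGF-binding protein gene that rises in fasting and low insulin, was at 82200.5 in Dox library 2 against 61.1 in Dox library 1 and 209.9 to 1709.5 in Tc. Of 27 tested axis genes, 9 were over 2-fold higher, 9 lower and 9 within 2-fold between Dox libraries 1 and 2, and 24 of 27 were within 2-fold between Tc libraries 1 and 2.

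The feedback inhibitors of the receptor gave different orders. Cish, a suppressor that STAT5 induces within minutes of a pulse, was at 641.5, 345.9 and 474.2 in Control, 124.3, 107.0 and 124.0 in Dox, and 687.5, 397.5 and 511.2 in Tc. All Dox libraries were below all others, with little difference between the high and the low Dox liver. Cish fell with Dox, with a log2 fold change of -1.99 against Control (standard error 0.26, adjusted p = 0.00773 in limma) and -2.13 against Tc (0.26, 0.0487, and 0.187 with a replicate block over Dox and Tc only). Without libraries 3 the adjusted p against Control was 0.558 with limma and 0.00715 with DESeq2. Socs2, another suppressor of the receptor, was at 642.5, 302.6 and 534.0 in Control, 93.7, 1161.8 and 499.7 in Dox, and 376.9, 383.1 and 373.1 in Tc, so its lowest level was in the Dox liver with the highest pulse targets. Stat5b, the transducer, ranged from 698.2 to 1054.3 over all libraries, with a log2 fold change of -0.18 for Dox (standard error 0.14, adjusted p = 0.422) and -0.37 for Tc (0.14, 0.381). Onecut1, which encodes HNF6, was at 987.6, 568.9 and 778.1 in Control, 646.5, 104.7 and 490.0 in Dox, and 2783.1, 1035.9 and 1951.4 in Tc. Cish was the 1 axis gene of 27 tested that passed in Dox against Control, beside 5.0% of all genes. Igfbp2, an IGF-binding protein gene, had a log2 fold change of 2.06 with Dox (standard error 0.58, adjusted p = 0.0617), and the log2 fold changes of Ghr, Igf1 and Socs2 with Dox were -0.59 (0.85, 0.669), -1.07 (0.48, 0.185) and -0.31 (0.76, 0.813).

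**Figure D4:**
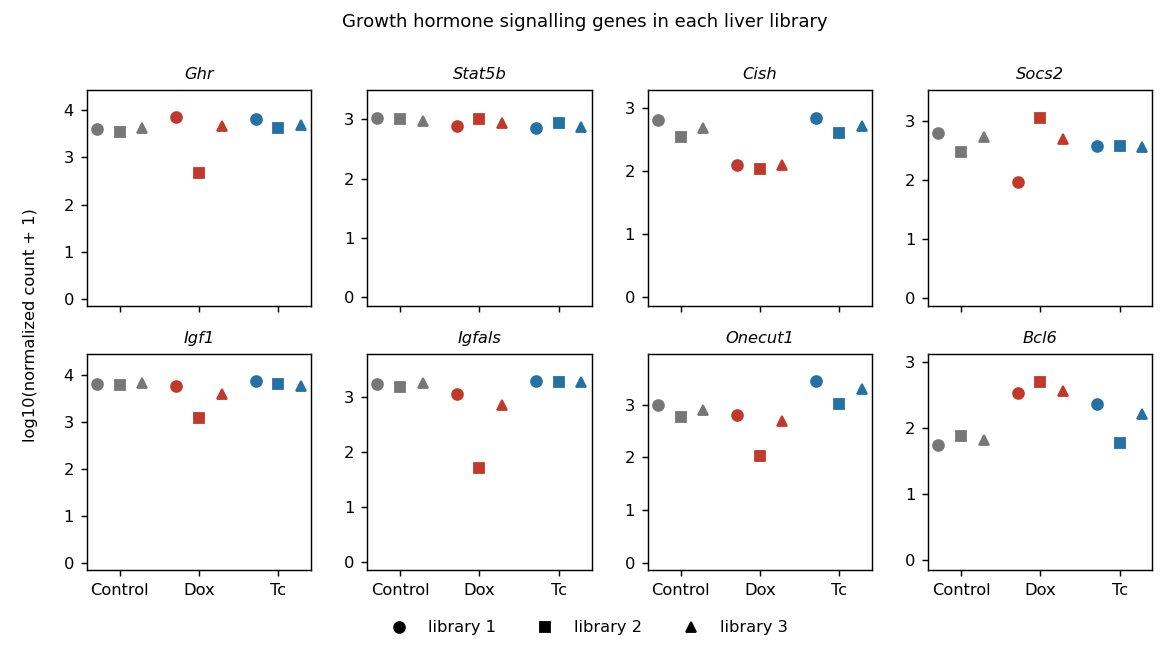
Growth hormone signalling genes in each library, with log10(normalized count + 1) on the vertical axis, symbols for library number and colours for group. Ghr, Igf1 and Igfals are lowest in Dox library 2, Cish is low in all Dox libraries, and Stat5b lies between 698.2 and 1054.3 normalized counts throughout.

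The genes outside the list whose levels most resembled the mean of the 10 were found among 9369 genes whose mean was 50 or more, by Pearson r over the 9 libraries. The 8 highest were Mup21 (r = 0.992), Mup7 (0.991), C4a (0.989), Mup11 (0.986), Aox3 (0.986), Mup17 (0.985), Alas2 (0.983) and Mup14 (0.981). Over libraries 1 and 2 alone, r for these genes was 0.981 to 0.993. C4a, the sex-limited complement protein gene, was at 33.9, 58.4 and 38.1 normalized counts in Control, 343.3, 13.8 and 216.4 in Dox, and 145.5, 40.5 and 128.0 in Tc. Aox3, an aldehyde oxidase of the liver, was at 1520.0, 2647.0 and 2153.7 in Control, 19054.8, 402.6 and 12013.4 in Dox, and 11464.2, 2359.7 and 7538.7 in Tc. The 5 Mup genes share sequence with one another, so they are not separate observations. The 8 lowest were Ccdc141 (-0.957), Nudt16, Plpp1, App, Med9, Acap2, Myadm and Slc16a7 (-0.926). Their levels differed far less among livers. Ccdc141 ranged from 55.8 in Dox library 1 to 150.7 in Dox library 2. The 9 libraries may come from fewer livers, and 129 genes had r over 0.9 and 28 under -0.9. Among list genes whose mean was 50 or more, 13 of 14 male-biased genes had r over 0.5 and 13 of 26 female-biased genes had r under -0.5, beside 24.7% and 17.6% of all genes compared. Mup7, Mup11, Mup17, Mup21 and Nox4 were among the 14 and reached that mean only through their high libraries. They were at 0.0 to 39.4 in the Control libraries, Dox library 2 and Tc library 2, so nothing is read from these counts.

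Inflammation, clock and cell-type markers also differed among these livers, and their part in the levels of the pulse targets was not tested. The summed level of 12 acute-phase genes was 236993.1 to 251250.0 normalized counts in Control, 43703.0 to 51275.8 in Dox, 86014.0 in Tc library 1 and 388430.2 in Tc library 2. Of these, 8 fell with Dox in limma with all 9 libraries and 10 in DESeq2, beside 5.0% and 9.4% of all genes called. Limma called 0 without libraries 3 (7 at an unadjusted p under 0.05), 0 without Control library 2 or Control library 3, 1 without Dox library 3, 2 without Control library 1 and 4 without Tc library 3. It called 10 without Dox library 1 (1 raised), 10 without Dox library 2, 9 without Tc library 1 and 8 without Tc library 2. DESeq2 without libraries 3 called 6, and edgeR with all 9 libraries called 8. Over all genes those fits called 145 of 12096 and 668 of 12100, and limma with 1 library left out called 32 to 1511. In Tc against Control 0 passed in limma, DESeq2 or edgeR, with 0 at an unadjusted p under 0.05 in each. Saa1, a serum amyloid gene, was at 281.1 in Dox library 1 and 36.8 in Dox library 2, so it was low in both the Dox liver with the highest pulse targets and the one with the lowest. Within Tc it was at 1695.2 in library 1 and 30975.0 in library 2, where the pulse targets were low. The summed level of 14 clock genes was 5696.5 to 7608.7 in Control, 10406.6 to 11398.3 in Dox and 9341.5 to 9605.9 in Tc. Arntl, the core clock activator gene, was at 349.7 in Dox library 2 and at 5.9 to 62.8 in the Control and Tc libraries. Dbp, a clock output gene, was at 223.2 in Dox library 2 and 1745.8 in Dox library 1, against 466.2 to 911.4 in Control and 1511.7 to 1673.7 in Tc. The summed hepatocyte markers were 1285523.3 to 1772260.2 in Control, 924899.6 in Dox library 1, 510771.8 in Dox library 2, 912457.1 in Tc library 1 and 1419895.6 in Tc library 2. In Dox library 2, where the pulse targets were low, Alb, the albumin gene, was at 255547.5 against 956160.4 to 1408836.3 in Control, and Ttr, the transthyretin gene, was at 6796.0 against 32043.6 to 37008.5. Not every hepatocyte marker was so low there. Cps1 was at its highest, 127213.0 against 47780.5 to 58689.8 in Control, and Ahsg was at 55709.1 against 60485.5 to 71075.6. The summed Kupffer cell markers were 5890.7 to 11864.6 in Control, 1605.8 in Dox library 1, 5978.1 in Dox library 2, 2837.7 in Tc library 1 and 5631.2 in Tc library 2. The erythroid markers, which include Alas2, summed to 646.5 to 2268.1 in Dox, 1071.9 to 1923.7 in Tc and 1177.1 to 4589.8 in Control. Within this sum Alas2 was at 46.0 to 1367.8 in Dox, 115.1 to 1211.8 in Tc and 118.6 to 335.3 in Control. Hbb-bs, a globin gene, was at 480.8 to 707.6 in Dox, 555.0 to 748.2 in Tc and 815.1 to 3276.9 in Control.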

How the data were processed

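Single-end 86-base reads from directional libraries of mouse liver RNA were measured in 9 libraries. The authors trimmed the reads with cutadapt, aligned them to mm10 with STAR 2.7.11ac and GENCODE vM23, counted uniquely mapped reads per gene with HTSeq 2.0.5 and divided the counts by DESeq2 1.42.0 size factors. The deposited signal is thus a normalized count. Of 32285 identifiers, 32158 had a symbol.

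Whole reads were recovered for 100% of the values (tolerance 0.01 of a read). The test was limma 3.58.1 with a trend (R 4.3.3) on log2(normalized count + 1), in 1 model of 9 libraries over the 12100 genes whose mean was 10 or more. Called genes had a Benjamini-Hochberg adjusted p under 0.05 and a fold change over 2. DESeq2 1.42.0 and edgeR 4.0.16 on the recovered reads were alternatives, with other pseudocounts, filters, scaling, groups, a replicate block and libraries left out. The scripts were tested on simulated data. Ratios of 2 libraries have 95% exact (Clopper-Pearson) intervals from the reads, and 3 counts was the limit for a count of 0.

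The members, the gene lists and the alternatives were chosen with earlier results of these data known. Genes named from the lists were those called, or not overlapping Control with a mean of at least 50 and over 2-fold, at most 8 a list, plus Socs2, Cish, Igf1, Ghr, Stat5b and Bcl6, and other genes shown were chosen after their values were seen. The numbers 1 to 3 come from the sample labels. Deviations from the group mean correlated between Dox and Tc libraries of the same number (r = 0.29, 0.32 and 0.18) but not between either and Control (-0.08 to 0.06), so a fit of Dox against Tc also took the number as a replicate block. The study calls the replicates biological, but libraries 3 could be fitted as mixtures of libraries 1 and 2 and may not be independent livers. Coordinates are GRCm38 from GENCODE M21.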

Additional observations from a re-analysis of the deposited data

Results flagged for a closer look

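Of 28 genes looked at, 4 gave different values for the drugs when each was compared with Control. Cish (log2 difference between Dox and Tc -2.13, limma adjusted p = 0.0487) and Cyp2c40 (-2.24, adjusted p = 0.0498) passed in Dox against Tc with all 9 libraries, and without libraries 3 both had a limma adjusted p of 0.755 and a DESeq2 adjusted p of 0.013. With the number as a replicate block, limma over Dox and Tc only called 0 genes, and Cish had an adjusted p of 0.187 and Cyp2c40 of 0.166. With the block over 9 libraries these were 0.0367 and 0.101. For Igfals (-2.45, adjusted p = 0.201) and Onecut1 (-2.46, adjusted p = 0.122), all Dox libraries were below and all Tc libraries above the Control mean, but the difference did not pass the test.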

How the results depend on the processing

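In Dox against Control, 605 genes were called. The count was 369 at a mean of at least 50, 1137 with DESeq2, 340 with only those groups fitted, 0 without libraries 3 and 145 with DESeq2 without them, and leaving out 1 library gave 32 (without Control library 3) to 1511 (without Dox library 1). In Tc against Control, 20 genes were called. The count was 10 at a pseudocount of 0.1, 32 with no filter, 9 at a mean of at least 50, 189 with DESeq2, 282 with only those groups fitted, 2 with the replicate block, 0 without libraries 3, 9 with DESeq2 without them, and 1 to 225 (without Dox library 2) with 1 library left out. In Dox against Tc, 26 genes were called. The count was 6 at a pseudocount of 0.1, 0 at 8, 4 with no filter, 0 at a mean of at least 50, 603 with DESeq2, 0 with edgeR (2861 at an unadjusted p under 0.05), 0 with only those groups fitted, 2 with the replicate block over 9 libraries, 0 with the block over Dox and Tc only, 0 without libraries 3, and 0 to 1366 (without Dox library 1) with 1 library left out. Unadjusted limma p-values under 0.05 without libraries 3 numbered 1038, 239 and 454 in the 3 comparisons. The cause of these moves was not tested, apart from the smaller number of libraries in the fits that leave some out.

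Male-biased genes called in Dox against Control numbered 1, with 6 in DESeq2, 0 without libraries 3 and 0 to 7 with 1 library left out. In Dox against Tc they numbered 0, with 1 in DESeq2 and 0 to 1 with 1 library left out. Female-biased genes called in Dox against Control numbered 6, with 21 in DESeq2, 0 without libraries 3 and 1 to 13 with 1 library left out. In Tc against Control they numbered 0, with 2 in DESeq2, 3 with only those groups fitted and 0 to 1 with 1 library left out. In Dox against Tc they numbered 1, with 0 at pseudocounts 0.1 and 8, with no filter, at a mean of at least 50, with edgeR, with only those groups fitted, with both replicate blocks and without libraries 3, with 11 in DESeq2, 2 in DESeq2 without libraries 3, and 0 to 12 with 1 library left out. Growth hormone axis genes called in Dox against Control numbered 1, with 3 in DESeq2, 0 without libraries 3 and 0 to 5 with 1 library left out. In Tc against Control they numbered 0, with 1 when only those groups were fitted and 0 to 1 with 1 library left out. In Dox against Tc they numbered 1, with 0 at a pseudocount of 8, at a mean of at least 50, with edgeR, with only those groups fitted, with the block over Dox and Tc and without libraries 3, with 4 in DESeq2, and 0 to 10 with 1 library left out.

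The median log2 fold change of the 10 pulse targets was 1.39 to 4.88 for Dox and 1.24 to 3.14 for Tc against Control with 1 library left out. Between the drugs it was 0.13 and changed sign, to -0.62 at a pseudocount of 0.1, to -0.52 without libraries 3 and over -1.46 to 2.67 with 1 library left out. The replicate block leaves these medians unchanged by construction.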
